A study of Homo sapiens with 4 samples.

Results

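The genes described here are MYC, its partner MAX and 48 further genes of ribosome production and of the polyamine and nucleotide synthesis that accompanies it. They were taken by symbol from the deposited expression matrix, where each of the 50 symbols had exactly 1 of the 57815 rows. All 50 reached 1 FPKM (fragments per kilobase of transcript, scaled to the mapped fragments of the library) in every library, so no member was lost to the filter on low values.

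The data are 4 RNA-seq libraries of AGS and MKN1, established human gastric cancer cell lines, 1 library per line and small interfering RNA (siRNA). In each line, cells given the control siRNA siScramble, labelled WT, were set against cells given siHOXB9, labelled as HOXB9 knockdown. Both groups of both lines carry the label of transfection with Lipofectamine 2000. The labels give neither the siRNA dose, nor the time from transfection to harvest, nor whether 1 or several cultures went into a library. The series text names the search for targets of HOXB9, a homeobox transcription factor, as its purpose.

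MYC is a transcription factor that binds DNA as a heterodimer with MAX, preferring a short palindromic element called the E-box, and it is frequently overexpressed in tumours. Ribosome production is among the best known processes that it activates. It starts in the nucleolus, where RNA polymerase I transcribes ribosomal DNA. Small nucleolar RNA-protein particles (snoRNPs) then modify the transcript, and separate groups of assembly factors process it into the small and the large ribosomal subunit. Polyamine synthesis and nucleotide synthesis supply the same growth programme, and the genes ODC1 and CAD are textbook MYC targets.

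Because MYC and MAX act at E-boxes, the start regions of the members were searched for the letters CACGTG, which read the same on both strands. RefSeq promoter windows on GRCh38.p14, from 250 bases before to 50 bases after a start site, were matched by symbol for 43 of the 50 genes, with 54 windows in all. The motif stood in at least 1 window of 20 of these 43 genes, or 46.5%. It stood in 7.26% of all 35116 windows of the table and in at least 1 window of 12.6% of 9187 matched genes that reached 1 FPKM in at least 2 libraries. The median GC content was 64.2% over the members' windows and 65.0% over those of the expressed genes. With CACGCG, in either orientation, accepted as well, the shares were 60.5% of the members, 31.9% of the expressed genes and 17.4% of all windows. The match is a description of these letters and shows neither binding nor regulation.

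Shown here are the windows around the motif for 4 genes that had lower values with siHOXB9 in both lines (DDX21, NAT10, GNL3 and LYAR) and for 6 genes with large differences between the lines (SRM, BYSL, MYBBP1A, NOP2, RRP9 and ODC1). Each reads 5′ to 3′ on the gene's own strand and capitals mark CACGTG.
DDX21, chr10:68956604-68956633, plus strand: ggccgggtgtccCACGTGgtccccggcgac
NAT10, chr11:34105602-34105631, plus strand: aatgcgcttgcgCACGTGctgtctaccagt
GNL3, chr3:52686026-52686055, plus strand: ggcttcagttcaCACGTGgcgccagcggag
LYAR, chr4:4290068-4290097, minus strand: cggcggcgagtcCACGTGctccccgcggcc
SRM, chr1:11060200-11060229, minus strand: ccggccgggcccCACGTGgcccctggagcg
BYSL, chr6:41921515-41921544, plus strand: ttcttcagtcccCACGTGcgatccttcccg
MYBBP1A, chr17:4555340-4555369, minus strand: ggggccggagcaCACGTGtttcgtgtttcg
NOP2, chr12:6568242-6568268, minus strand: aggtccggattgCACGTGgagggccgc
RRP9, chr3:51941892-51941921, minus strand: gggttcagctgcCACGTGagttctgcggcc
ODC1, chr2:10447990-10448019, minus strand: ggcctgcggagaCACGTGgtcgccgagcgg

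Counted from the first transcribed base as 0, the first base of the motif lay at -31 in DDX21, -15 in NAT10, 6 in GNL3 and -64 in LYAR. It lay at -5 in RRP9, 27 in MYBBP1A, 28 in BYSL and 35 in NOP2, but at -199 in SRM. ODC1 held the motif at -29 and at 5, and only the latter is printed. The windows of EMG1, NHP2, NIP7, POLR1B, TSR1, WDR3, NOP16 and MAX did not hold these letters.

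**Figure D1:**
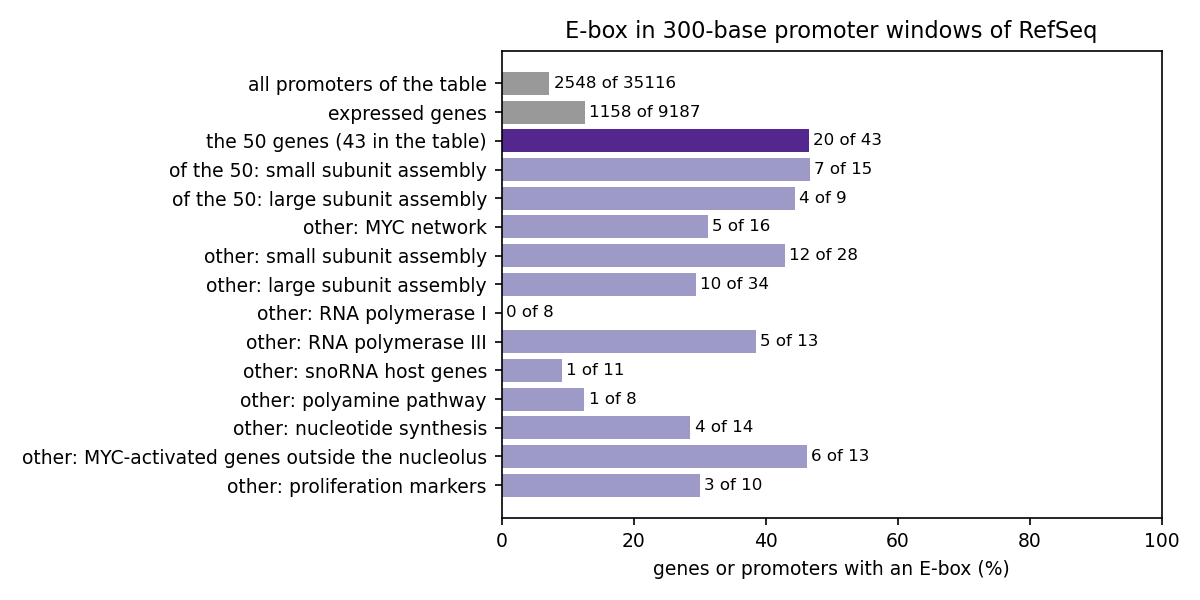
Bars give the percentage of genes, or for the top bar of promoter windows, that hold the E-box letters within 300 bases at the start site; the numbers beside each bar are those with the motif and those matched. The 50 genes reached 46.5%, beside 12.6% of expressed genes, and the assembly factors outside the 50 reached 42.9% (small subunit) and 29.4% (large subunit).

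HOXB9, the targeted gene, was at 16.4 FPKM with siScramble and 4.44 FPKM with siHOXB9 in AGS, and at 1.14 and 0.218 FPKM in MKN1. The knockdown libraries thus held 27.0% and 19.1% of the control level, the latter from an estimated 5 against 30 fragments (129 against 495 in AGS), and MKN1 started from a much lower level than AGS. The depth, estimated from the steps of low FPKM values, was 10630000 to 12980000 fragments a library, and 12537 to 12770 genes reached 1 FPKM. Of the epithelial markers 6 of 6 in AGS and 5 of 6 in MKN1 reached 1 FPKM. They summed to 3848 and 4522 FPKM in AGS and to 1772 and 2011 FPKM in MKN1. The MKN1 sums were mostly KRT8 (1077 and 1230 FPKM) and KRT18 (654 and 721 FPKM). EPCAM was at 2.14 and 2.70 FPKM in MKN1 against 328 and 359 FPKM in AGS. KRT19 was at 2.02 and 2.66 against 838 and 1001 FPKM, and CLDN4 at 36.4 and 54.4 against 372 and 443 FPKM. CDH1, which encodes E-cadherin, was at 0.0752 and 0.285 FPKM in MKN1. Of the 6 fibroblast markers, 1 and 2 reached 1 FPKM in the AGS libraries (siScramble, then siHOXB9) and 5 and 3 in the MKN1 libraries, with sums of 16.2 and 30.7 FPKM and of 59.1 and 72.6 FPKM, mostly COL1A1 and, in MKN1, COL3A1, while COL1A2 was at 0 in all. Of the 6 leukocyte markers 2, LYZ and CD68, reached 1 FPKM in each library; LYZ was at 2197 and 2163 FPKM in AGS, whereas CD3E and MS4A1 were at 0 and PTPRC reached at most 0.0183 FPKM. Of the 3 endothelial markers CDH5 reached 1.95 FPKM in MKN1 siScramble and KDR was at 0. The title of 1 library spells the line MNK1, while its other labels read MKN1.

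The members belonged to the well expressed genes of both lines. In AGS siScramble they ranged from 3.04 FPKM for UTP20 to 960 FPKM for NPM1 with a median of 39.5 FPKM, against a median of 15.0 FPKM over all genes at 1 FPKM or more. In MKN1 siScramble the median was 85.9 FPKM against 12.9 FPKM over all such genes. The members lying above that median numbered 41 and 39 in the AGS libraries (siScramble and siHOXB9) and 48 and 49 in the MKN1 libraries. NPM1, the abundant nucleolar chaperone nucleophosmin, alone made up 22.0% to 28.8% of the FPKM summed over the members.

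**Figure D2:**
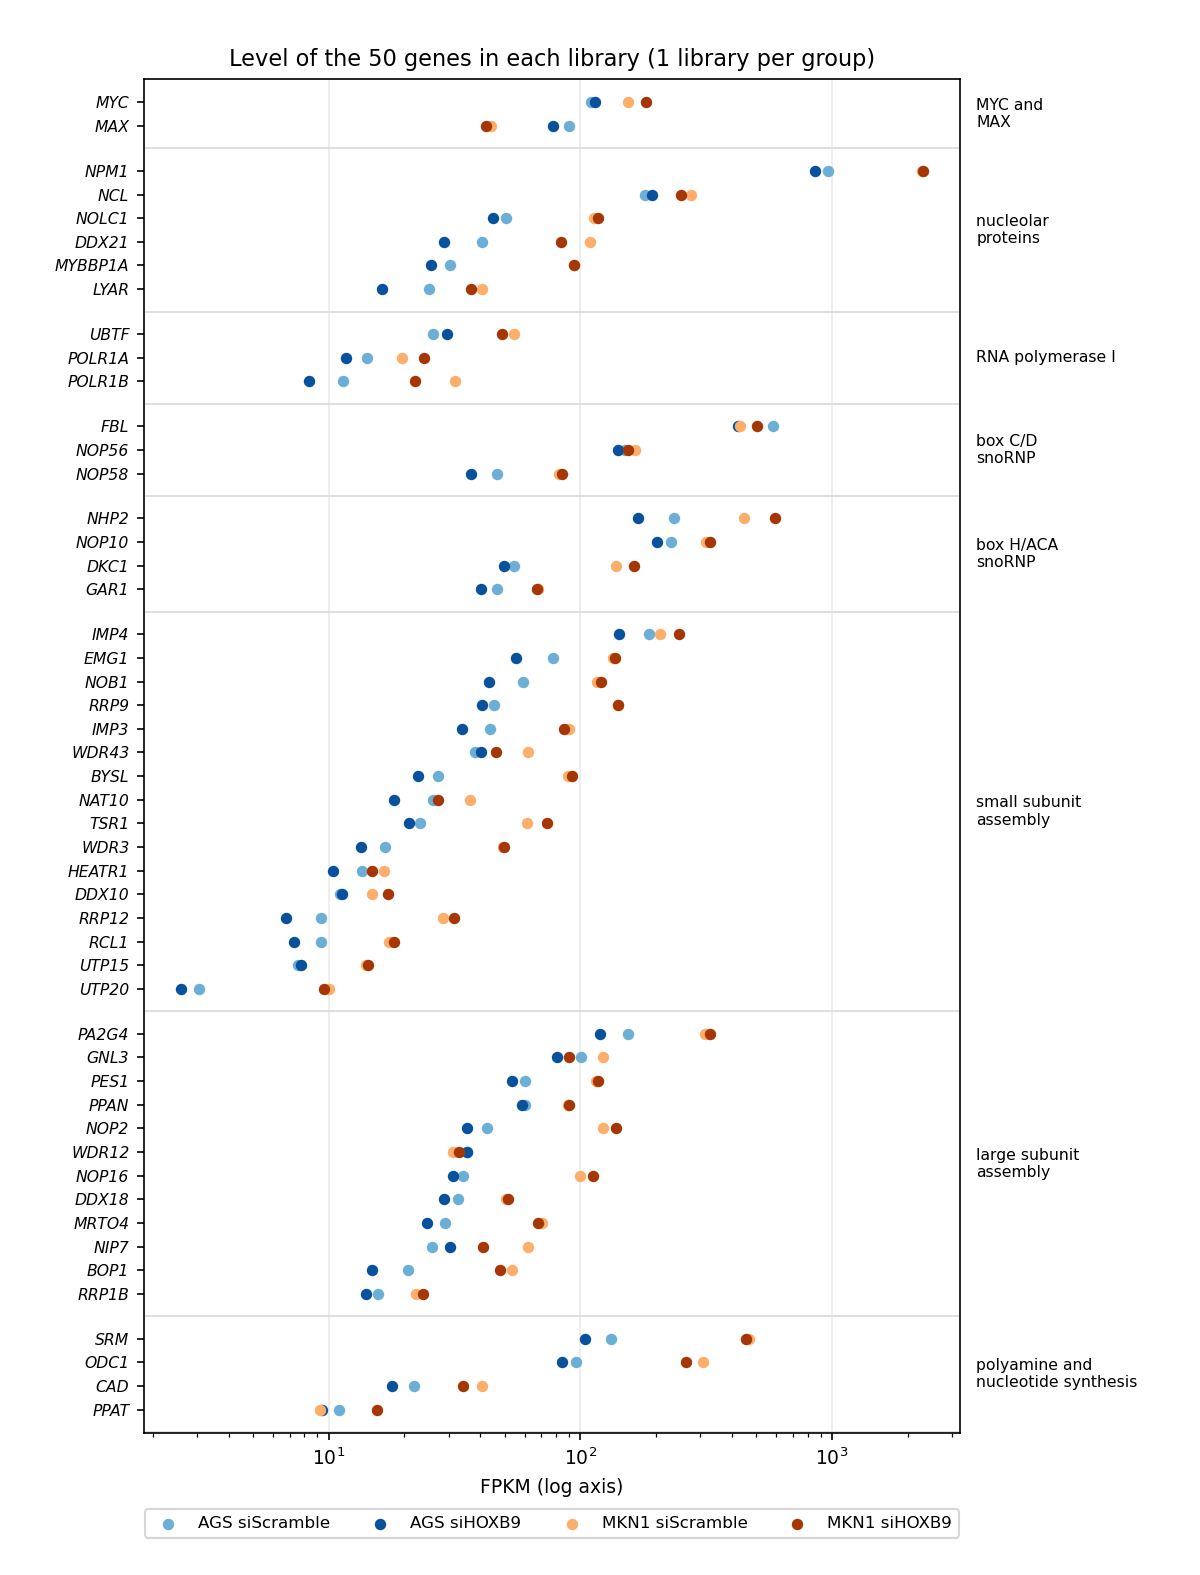
Each point is 1 library, with FPKM on a log axis and the genes ordered by role and by level in AGS siScramble. For 45 genes both MKN1 points lie to the right of both AGS points. MAX and WDR12 lie the other way, and in FBL, GNL3 and PPAT the lines overlap. This count was not made over all genes, of which 8787 of 13758 had an unadjusted limma p under 0.05 between the lines.

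The clearest difference in these genes was between the cell lines. MKN1 held the higher level of 46 of the 50 genes among the siScramble libraries and of 48 among the siHOXB9 libraries. The median ratio of MKN1 to AGS over the members was 1.89 with siScramble and 2.27 with siHOXB9, beside 0.879 and 0.976 over all genes at 1 FPKM or more in both libraries. Their share of all FPKM was 0.524% and 0.474% in the AGS libraries and 1.01% and 0.984% in the MKN1 libraries.

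The line difference was tested with limma on log2(FPKM + 1), in a model of line plus siRNA, over 13758 genes; the siScramble and siHOXB9 libraries of a line served as its 2 samples. A gene was called at a Benjamini-Hochberg adjusted p under 0.05 and a difference of 2-fold or more. By this rule 25 of the 50 members were higher in MKN1 and 0 were lower, while 16.2% of all genes tested were higher and 20.9% lower. Without the size rule 40 members were higher and 1, MAX, was lower at that adjusted p, a count not made here over all genes. An unadjusted limma p under 0.05 was common, in 42 of the 50 members and in 8787 of the 13758 genes. The median estimate was 1.00 on the log2 scale over the members and -0.10 over all genes, and 47 of the 50 estimates were positive. Centring each library on its median gene moved the all-gene median to 0.09 and the number of members called higher to 31. In bulk RNA such a difference cannot be assigned to the number of cells of a kind or to the RNA per cell, and 1 line of each kind does not stand for a class of tumours.

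MYC itself was at 110 and 114 FPKM in AGS (siScramble, then siHOXB9, here and below) and at 154 and 182 FPKM in MKN1. The lines did not overlap, and the limma estimate was 0.57 higher in MKN1 on the log2 scale (SE 0.17, adjusted p = 0.0208), short of 2-fold. MAX was at 90.5 and 78.1 FPKM in AGS and at 44.3 and 42.1 FPKM in MKN1. Its estimate of -0.95 (SE 0.17, adjusted p = 0.00248) lay opposite to that of MYC and just inside 2-fold.

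The 10 largest differences between the lines were in SRM, BYSL, RRP12, MYBBP1A, NOP2, RRP9, WDR3, NOP16, ODC1 and TSR1, which belong to several of the role groups. SRM, the spermidine synthase, was at 132 and 104 FPKM in AGS and at 467 and 454 FPKM in MKN1, an estimate of 1.97 (SE 0.17, limma adjusted p = 7.75e-05). ODC1, ornithine decarboxylase and the entry enzyme of polyamine synthesis, was at 96.1 and 84.7 FPKM in AGS and 308 and 264 FPKM in MKN1, an estimate of 1.65 (limma adjusted p = 0.00014). In both enzymes the lines were well apart and the libraries within a line close. CAD, which starts pyrimidine synthesis, and PPAT, which commits to purine synthesis, did not pass the 2-fold rule. CAD was estimated at 0.89 (limma adjusted p = 0.00424) and PPAT at 0.22 (limma adjusted p = 0.491).

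Of the small subunit factors 10 of 16 were called higher in MKN1, beside 16.2% of all genes. BYSL, a late assembly factor, was at 27.2 and 22.6 FPKM in AGS and at 89.2 and 92.7 FPKM in MKN1, an estimate of 1.83 (limma adjusted p = 0.000136). RRP12, which takes part in export and maturation of the subunits, was at 9.33 and 6.77 FPKM in AGS and 28.4 and 31.6 FPKM in MKN1, an estimate of 1.79 (limma adjusted p = 0.000382). These were the largest line differences of the class. RRP9, a protein of the U3 snoRNP, was at 45.2 and 40.8 FPKM in AGS and at 141 FPKM in both MKN1 libraries. WDR3 was at 16.8 and 13.4 against 49.4 and 49.8 FPKM, and TSR1, a factor of late small subunit particles, at 23.1 and 20.8 against 61.6 and 73.9 FPKM. Their estimates were 1.69, 1.66 and 1.58, with limma adjusted p of 0.000145, 0.000279 and 0.000354. The 6 members of the class that were not called also had positive estimates.

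Of the large subunit factors 6 of 12 were called higher in MKN1, beside 16.2% of all genes. NOP2, a methyltransferase of large subunit ribosomal RNA, was at 42.7 and 35.3 FPKM in AGS and 123 and 138 FPKM in MKN1, an estimate of 1.72 (limma adjusted p = 0.000215). NOP16 was at 34.2 and 31.3 FPKM in AGS and 99.3 and 112 FPKM in MKN1, an estimate of 1.66 (limma adjusted p = 0.000205). BOP1, PES1 and WDR12 encode the 3 subunits of 1 complex needed for large subunit maturation, and they did not share the pattern. BOP1 was estimated at 1.48 and PES1 at 1.02 higher in MKN1, both called (limma adjusted p = 0.000448 and 0.00172). WDR12 was at 35.4 FPKM in both AGS libraries and at 31.2 and 33.0 FPKM in MKN1, an estimate of -0.14 (limma adjusted p = 0.527).

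Among nucleolar proteins 4 of 6 were called higher in MKN1, beside 16.2% of all genes. These were NPM1, NOLC1, MYBBP1A and DDX21, and NCL and LYAR were not called. MYBBP1A, a nucleolar protein that also binds the transcription factor MYB, was at 30.3 and 25.4 FPKM in AGS and at 94.1 and 94.6 FPKM in MKN1, an estimate of 1.73 (limma adjusted p = 0.000162). NPM1 was at 960 and 852 FPKM in AGS and at 2285 and 2297 FPKM in MKN1, an estimate of 1.34 (limma adjusted p = 0.000609). The annotation lists 45 pseudogenes of NPM1, which summed to 21.7 to 77.3 FPKM, so shared reads can touch its value. Of the RNA polymerase I genes POLR1B was called (1 of 3), and of the box H/ACA snoRNP genes, whose particles pseudouridylate ribosomal RNA, DKC1 and NHP2 (2 of 4). The box C/D snoRNP genes FBL, NOP56 and NOP58, whose particles methylate ribosomal RNA, gave 0 calls of 3. Groups of 3 or 4 genes are too small to compare with each other or with the 16.2% of all genes. FBL, the methyltransferase fibrillarin, was at 582 and 422 FPKM in AGS and at 430 and 504 FPKM in MKN1, so that its lines overlapped (estimate -0.09, limma adjusted p = 0.734).

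**Figure D3:**
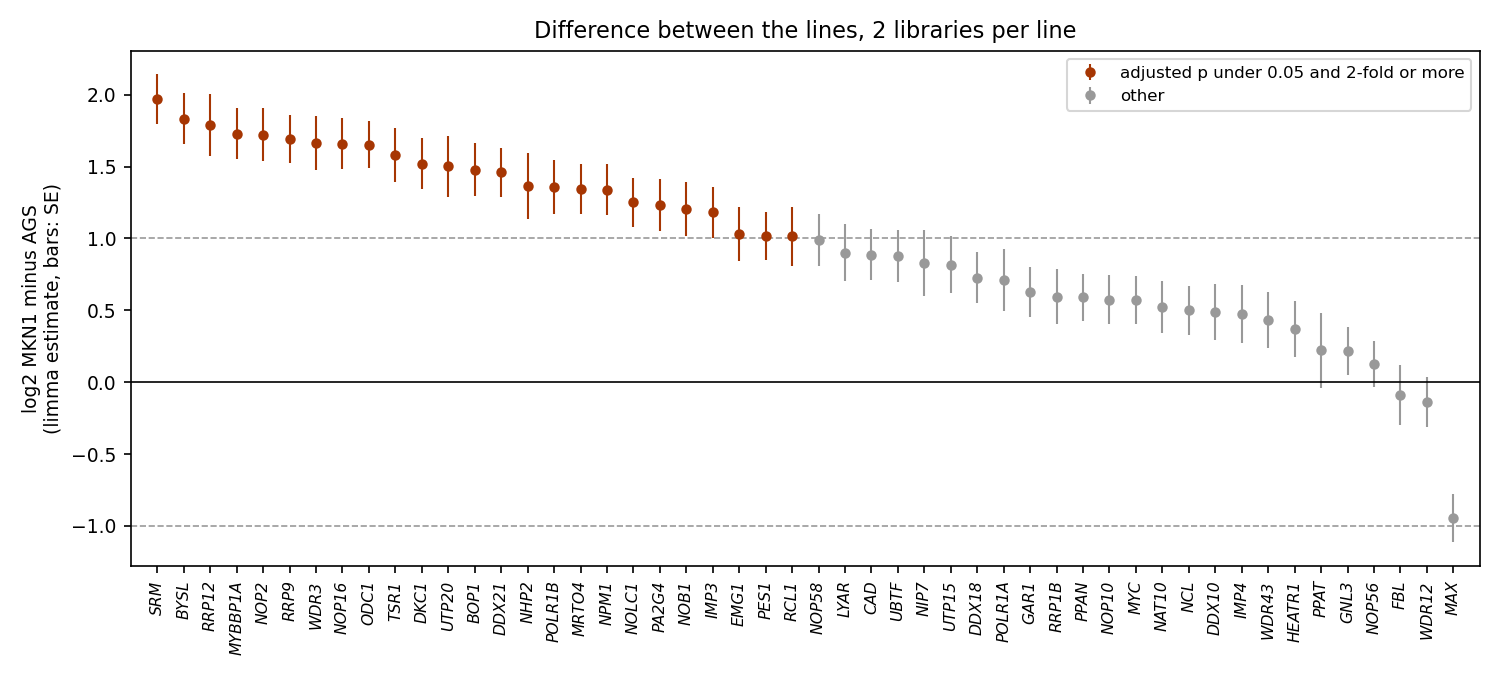
Points are limma estimates of the MKN1 minus AGS difference in log2(FPKM + 1) for each of the 50 genes, bars are standard errors and dashed lines mark 2-fold. The 25 coloured genes passed both the adjusted p and the 2-fold rule; estimates run from 1.97 for SRM to -0.95 for MAX.

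Within AGS the siHOXB9 library held slightly lower levels of most members. The change was taken as log2((siHOXB9 FPKM + 1)/(siScramble FPKM + 1)). It lay below 0 in 42 of the 50 genes with a median of -0.21 and quartiles of -0.36 and -0.14, beside a median of -0.06 and 57.0% below 0 over 13252 genes measured in AGS. No member passed 2-fold, as 2.21% of all genes did downward and 1.68% upward. None passed 1.5-fold either, a rule passed downward by 8.37% and upward by 5.64% of all genes. The shift was therefore broad and small: 19 members were lower by 0.3 or more on the log2 scale, 0 were higher by that much, and 6 had a size under 0.1. These counts were not made over all genes, whose quartiles in AGS were -0.28 and 0.16.

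With 1 library per group there is no test within a line. Counting error alone, from fragment numbers estimated at 171 to 39356 per gene and library, gave 95% half-widths of 0.03 to 0.29 on the log2 change in AGS. Beyond that half-width 38 members were lower and 3 were higher, but the spread between cultures is not part of it. Each of the scalings tried (quantile normalization, centring, a common total for all libraries) left 40 or 41 members below 0, with medians of -0.12 to -0.16.

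Within MKN1 the members were divided about 0. The change lay below 0 in 20 and above 0 in 30 genes with a median of 0.02, beside a median of 0.09 and 36.9% below 0 over 13122 genes. In size 25 members were under 0.1. The quartiles were -0.12 and 0.09 over the members and -0.12 and 0.29 over all genes. No member passed 2-fold (1.94% of all genes downward and 2.10% upward). By 1.5-fold, 1 member, NIP7, was lower and 1, PPAT, was higher, beside 5.39% and 7.96% of all genes. The sign of the middle depended on the scaling, since 36 to 38 members lay below 0 with medians of -0.06 to -0.08 once the libraries were put on a common total, centred or quantile normalized. Set against all genes, the members' median was lower by 0.16 in AGS and by 0.08 in MKN1.

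**Figure D4:**
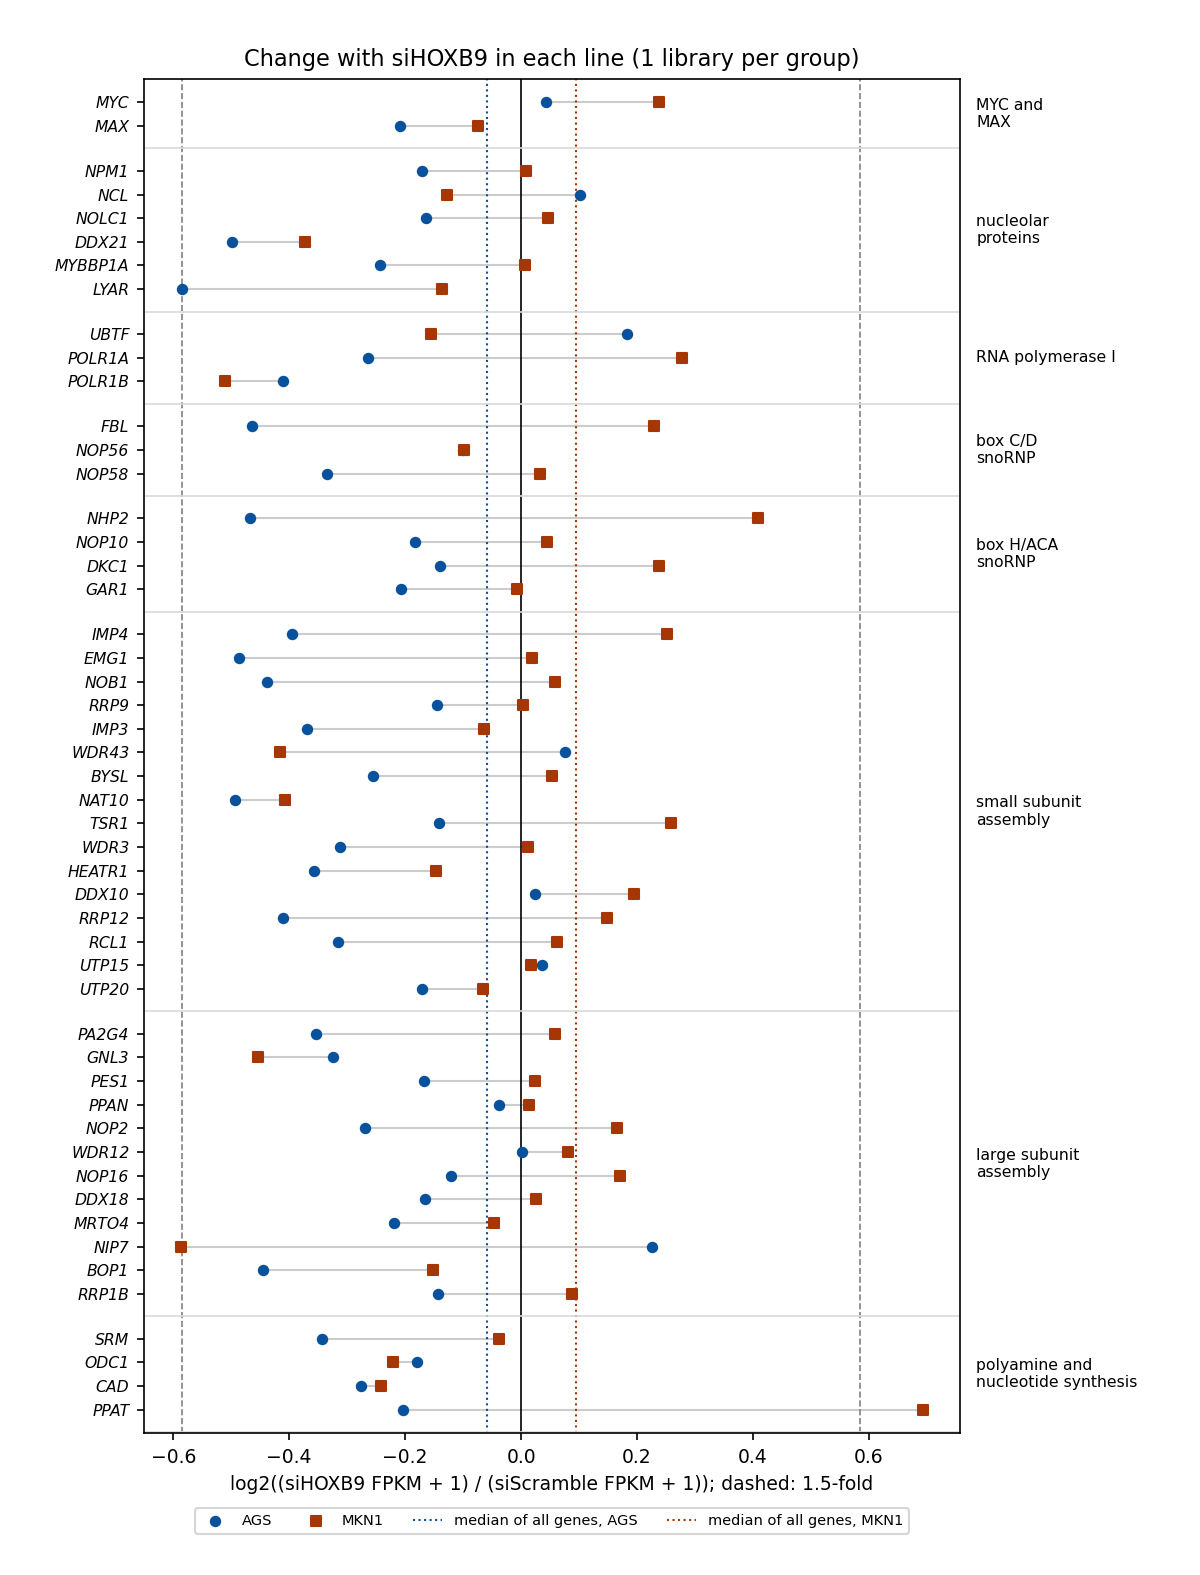
Points give the log2 change with siHOXB9 in AGS (circles) and MKN1 (squares) for each of the 50 genes by role; dashed lines mark 1.5-fold and dotted lines the median of all genes in each line. The AGS points lie mostly between -0.5 and 0, those of MKN1 on both sides of 0, with NIP7 and PPAT as the ends.

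MYC differed little between the siRNAs. Its change was 0.04 in AGS and 0.24 in MKN1, and that of MAX was -0.21 and -0.07. Over both lines limma gave MYC 0.14 (SE 0.17, adjusted p = 0.932) and MAX -0.14 (SE 0.17, adjusted p = 0.932). The MYC transcript was at 103% of its control level in AGS, a change within its counting half-width of 0.10, and at 118% in MKN1. The members' median change in AGS was below 0, and a part of MYC in it was not tested.

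Among nucleolar proteins DDX21 and LYAR were the lowest. DDX21, an RNA helicase that links RNA polymerase I transcription with processing, was at 40.8 and 28.6 FPKM in AGS and at 109 and 84.1 FPKM in MKN1, changes of -0.50 and -0.37. LYAR, a nucleolar zinc finger protein of growing cells, was at 25.0 and 16.3 FPKM in AGS and at 40.5 and 36.7 FPKM in MKN1. Its change of -0.58 in AGS was the lowest of all members there, just inside 1.5-fold. In MKN1 the change of LYAR was -0.14, within its counting half-width of 0.17. NCL, nucleolin, was at 180 and 193 FPKM in AGS and 276 and 252 FPKM in MKN1, changes of 0.10 and -0.13, and was the nucleolar gene above control in AGS.

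In the RNA polymerase I group the 2 catalytic subunits differed from each other. POLR1B (chr2:112541915-112577150, plus strand, GRCh38 with GENCODE release 29, here and below) was at 11.4 and 8.32 FPKM in AGS and at 31.8 and 22.0 FPKM in MKN1, changes of -0.41 and -0.51. POLR1A was at 14.2 and 11.7 FPKM in AGS but at 19.6 and 24.0 FPKM in MKN1, changes of -0.26 and 0.28. POLR1B was thus lower with siHOXB9 in each line, whereas POLR1A took opposite signs. UBTF, which binds ribosomal DNA and recruits the polymerase, had changes of 0.18 and -0.16.

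The snoRNP genes were lower in AGS in all 7 cases, with a median of -0.33 for box C/D and -0.20 for box H/ACA. FBL had changes of -0.46 in AGS and 0.23 in MKN1 from the levels given above. NHP2 (chr5:178149460-178153967, minus strand), a core protein of box H/ACA particles, was at 235 and 170 FPKM in AGS and at 447 and 594 FPKM in MKN1, changes of -0.47 and 0.41. It was the only member with opposite signs and a size of 0.3 or more in both lines. NHP2 shares exon sequence with RMND5B on the opposite strand, and these libraries do not keep the strand.

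The small subunit factors had a median of -0.31 in AGS, with 13 of 16 below 0, and of 0.02 in MKN1, with 5 of 16 below 0. NAT10, which acetylates cytidines of small subunit ribosomal RNA, was at 25.9 and 18.1 FPKM in AGS and at 36.5 and 27.3 FPKM in MKN1, changes of -0.49 and -0.41. EMG1, a methyltransferase of the same RNA, was at 78.1 and 55.5 FPKM in AGS and at 135 and 137 FPKM in MKN1, changes of -0.49 and 0.02. NAT10 thus lay below control in each line and EMG1 in AGS alone. The annotated exons of EMG1 overlap those of C1S on the same strand and of LPCAT3 on the opposite one. NOB1, the endonuclease that makes the mature end of small subunit ribosomal RNA, was at 59.3 and 43.5 FPKM in AGS and at 116 and 121 FPKM in MKN1, changes of -0.44 and 0.06. RRP12 had changes of -0.41 and 0.15, and HEATR1 of -0.36 and -0.15. WDR43, a protein of the early processing complex, had the reverse order of lines, at 38.2 and 40.3 FPKM in AGS and 61.8 and 46.1 FPKM in MKN1.

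The large subunit factors had a median of -0.17 in AGS, with 10 of 12 below 0, and of 0.02 in MKN1, with 4 of 12 below 0. GNL3, the nucleolar GTPase nucleostemin, was at 101 and 80.8 FPKM in AGS and at 123 and 89.9 FPKM in MKN1, changes of -0.32 and -0.45. BOP1 was at 20.6 and 14.9 FPKM in AGS and at 53.5 and 48.0 FPKM in MKN1, changes of -0.44 and -0.15. Both genes were below control in each line. NIP7 (chr16:69337996-69343111, plus strand), a factor of large subunit maturation, was at 25.8 and 30.3 FPKM in AGS and at 62.0 and 40.9 FPKM in MKN1, changes of 0.23 and -0.59. These were the highest change of a member in AGS and the lowest in MKN1, and NIP7 shares exon sequence with COG8 on the opposite strand.

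The synthesis enzymes SRM, ODC1, CAD and PPAT were all below control in AGS (median -0.24), and 3 of the 4 in MKN1. CAD was at 21.8 and 17.8 FPKM in AGS and at 40.6 and 34.2 FPKM in MKN1, changes of -0.28 and -0.24. PPAT (chr4:56393362-56435615, minus strand) was at 11.0 and 9.43 FPKM in AGS but at 9.26 and 15.6 FPKM in MKN1, changes of -0.20 and 0.69. That was the highest change of a member in either line, and the MKN1 siHOXB9 library held the highest PPAT level of the 4.

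Taking both lines as the repeat of the knockdown, limma called 0 of the 50 members for siRNA at an adjusted p under 0.05. It called 1 of 13758 genes in all, or 0.00727%. At an unadjusted p under 0.05 there were 3 of the 50 members and 980 of the 13758 genes. The members' share was thus no higher than that of all genes. The 3 were POLR1B with an estimate of -0.46 (SE 0.19, limma adjusted p = 0.696), NAT10 with -0.45 (SE 0.18, limma adjusted p = 0.691) and DDX21 with -0.44 (SE 0.17, limma adjusted p = 0.682). GNL3 followed with -0.39 (limma adjusted p = 0.703) and LYAR with -0.36 (limma adjusted p = 0.772). The estimates were negative for 40 members with a median of -0.11, beside 0.02 over all genes. The residual spread of this model has 1 degree of freedom and comes from the difference of the siRNA change between the lines.

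On the deposited scale 16 of the 50 members were below control in both lines, 4 above in both, 26 below in AGS and above in MKN1, and 4 the reverse. Opposite signs thus occurred in 60.0% of the members and in 46.9% of all genes measured in both lines. That split depended on the scaling: after centring on the median gene 31 members lay below 0 in both lines and 17 had opposite signs, 34.0% beside 42.7% of all genes, and a common total or quantile normalization gave 17 and 18 with opposite signs. The change in AGS lay below that in MKN1 for 42 members, and for 67.3% of 11547 genes measured in both lines. Across the members the changes of the lines had a Pearson r of -0.04 and a Spearman rho of 0.05, a description over 50 genes of the same libraries.

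Genes with the E-box letters had a median change of -0.25 in AGS, with 19 of 20 below 0, and those whose windows lacked them of -0.17, with 17 of 23 below 0. In MKN1 the medians were -0.00 with 10 of 20 below 0 and 0.01 with 9 of 23 below 0. These are descriptions of genes that share the libraries, and the difference between genes with and without the letters was not tested.

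Some of the members also share a feature of gene structure. Within 9 of the 50 genes, or 18.0%, the annotation places at least 1 small nucleolar RNA gene (28 in all), compared with 1.37% of 19969 protein-coding genes. The 9 hosts were NCL, NOP56, NOP58, DKC1, GNL3, WDR43, TSR1, PPAN and ODC1. Libraries made from polyadenylated RNA measure the host transcripts and not the small RNAs inside. With small nucleolar RNA genes inside a member left aside, exons of 8 members overlap a gene on the same strand. Those of 21 overlap a gene on the opposite strand. The remaining 24 overlap none by that count. A restriction of all data to protein-coding genes without shared exons also counted small nucleolar RNA genes and dropped NOP58 of these. It kept the other 23, of which 19 lay below 0 in AGS.

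Assembly factors outside the 50 genes were also mostly below control in AGS. Of 31 other small subunit factors 27 lay below 0 in AGS with a median of -0.19, and in MKN1 the median was 0.04. Of 38 other large subunit factors 30 lay below 0 in AGS with a median of -0.22, and the MKN1 median was 0.11. RSL24D1, which joins the large subunit precursor, was at 60.8 and 38.0 FPKM in AGS and the helicase DDX54 at 71.4 and 45.9 FPKM. Limma called 7 of the 31 and 12 of the 38 higher in MKN1 and 0 lower, beside 16.2% higher and 20.9% lower over all genes; the first count is near that background. The further RNA polymerase I genes had a median of -0.28 in AGS over 11 genes, RNA polymerase III genes of -0.17 over 18 and snoRNA host genes of -0.15 over 13. In MKN1 these medians were -0.01, 0.15 and 0.12. SNHG3, a noncoding host of small nucleolar RNAs, was at 14.8 and 5.16 FPKM in MKN1, a change of -1.36.

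Other nucleotide synthesis genes had a median of -0.31 over 17 genes in AGS and 0.06 in MKN1. IMPDH2, which controls guanine nucleotide synthesis, was at 227 and 135 FPKM in AGS and 284 and 266 FPKM in MKN1. The polyamine genes outside the 50 had medians of -0.13 and 0.03 over 11 genes. Genes that MYC is known to activate outside the nucleolus had a median of -0.41 in AGS, with 15 of 16 below 0. In MKN1 their median was 0.07, with 4 of 15 below 0 and 11 above. MTHFD2, a mitochondrial folate enzyme, was at 128 and 60.6 FPKM in AGS and at 86.1 and 85.3 FPKM in MKN1. Genes that MYC is known to repress lay above 0 in 7 of 9 cases in each line, with medians of 0.26 and 0.35. Over all genes 5698 of 13252 in AGS and 8277 of 13122 in MKN1 lay above 0, with medians of -0.06 and 0.09. Most genes thus lay above 0 in MKN1, those known to be activated by MYC among them. CDKN2B, an inhibitor of cyclin-dependent kinases, was at 14.9 and 33.0 FPKM in AGS and at 7.21 and 14.0 FPKM in MKN1, and CDKN1A was at 35.7 and 74.9 FPKM in MKN1. No gene of these lists was called by limma for siRNA.

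Of the other MYC network genes, 12 of 18 lay below 0 in AGS and 7 of 16 in MKN1, with medians of -0.12 and 0.04. MNT, a repressor that competes for MAX, was at 15.6 and 14.4 FPKM in AGS and at 10.6 and 20.1 FPKM in MKN1, a change of 0.86. Among the related MAX partners MXD3 was at 25.7 and 13.8 FPKM in AGS, MXD1 at 3.46 and 5.95 FPKM and MXD4 at 35.2 and 51.9 FPKM. In AGS MXD3 was thus below control and MXD1 and MXD4 above it, while MNT stood out in MKN1.

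Proliferation markers were lower with siHOXB9 in AGS as well. There 12 of 12 were lower by 1.5-fold or more, beside 8.37% of all genes, with a median of -0.80. In MKN1 2 of 12 were lower by that much, beside 5.39% of all genes. The MKN1 median was -0.10, with 7 of 12 below 0. MCM2, a subunit of the replicative helicase, was at 53.0 and 26.2 FPKM in AGS and at 220 and 261 FPKM in MKN1. CCNA2, cyclin A2, was at 36.2 and 12.5 FPKM in AGS and at 37.6 and 10.8 FPKM in MKN1. The part of proliferation in the values of the 50 genes was not tested.

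**Figure D5:**
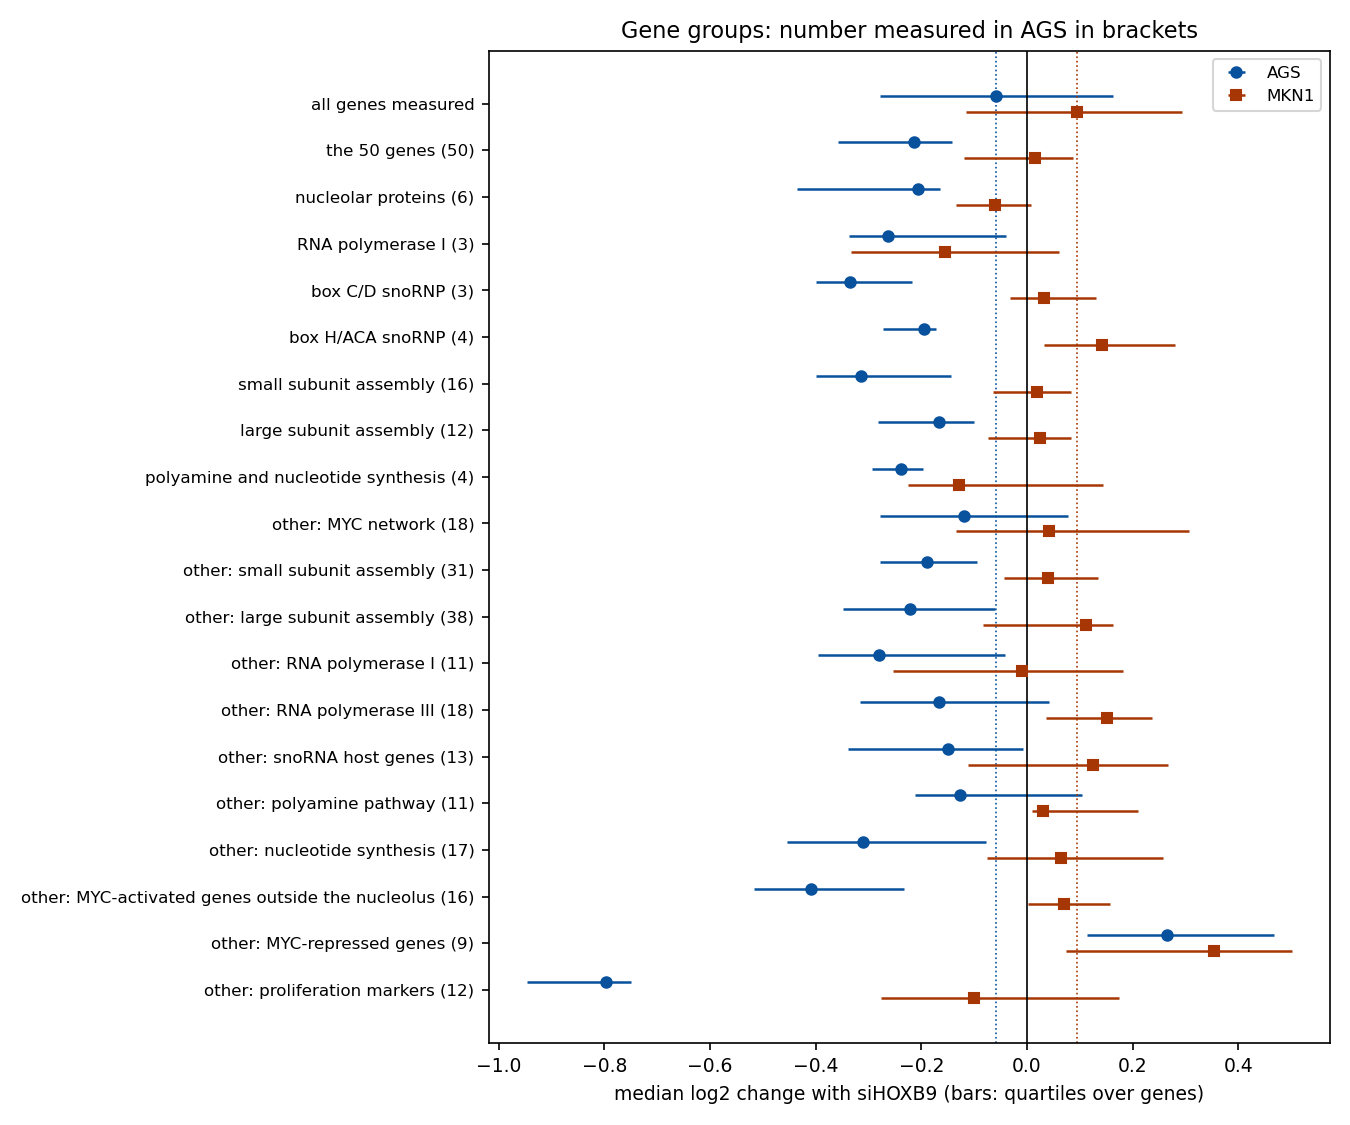
Points are medians over genes of the log2 change with siHOXB9 in AGS (circles) and MKN1 (squares), bars join the quartiles over genes, and dotted lines mark the medians of all genes. In AGS every group of the 50 genes lies left of the all-gene median of -0.06, the proliferation markers lie farthest left at -0.80 and the genes known to be repressed by MYC lie right of 0.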

How the data were processed

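RNA bound to poly-T beads was made into libraries without a step that keeps the strand, per the labels' protocols. The authors deposited 1 table of FPKM values by gene symbol; builds GRCh38 and hg38 are named in the submitters' processing notes, and no source used here names the aligner, counting tool or annotation. The columns were used as deposited. Depth was estimated from the steps of low FPKM values in single-transcript genes (56.8% to 57.9% within 0.05 of whole fragments), so fragment numbers are approximate. Symbols were joined to GENCODE release 29.

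Within a line, changes used a pseudocount of 1 FPKM among genes with 1 FPKM in either library, with no test. Both lines were fitted together with limma 3.58.1 in R 4.3.3 (variance trend, two-sided, Benjamini-Hochberg). For the p-values limma combined each gene's spread (1 residual degree of freedom) with a spread estimated over all genes. The latter weighed more, with 6.17 prior degrees of freedom. Both come only from these samples, and the spread may be technical. The fit was also run on simulated data. The changes added there were larger than any siHOXB9 change of a member, and none differed by design between the lines. That run therefore does not bear on changes as small as those of the members.

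Values are given for HOXB9, MYC, MAX, the 10 members with the largest changes in each line, over both lines and between the lines, members with opposite signs and a size of at least 0.3, and up to 4 genes of each other list; a few members at the end of a range, such as NPM1, NCL and WDR12, were named after their values were seen. The members and lists were chosen with earlier results of these data known. Of the symbols searched, UTP4, UTP11, NIFK and PECAM1 had no single row.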

Additional observations from a re-analysis of the deposited data

Results flagged for a closer look

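On the deposited scale the change with siHOXB9 had opposite signs in the lines for 30 of the 50 genes, or 60.0%, beside 46.9% of all genes. The 6 of these 50 genes with a size of 0.2 or more in both lines are listed here. Among all genes 1351 of 11547 met that size with opposite signs, a share close to that of the members. After scaling to a common total, centring or quantile normalization 17, 17 and 18 genes had opposite signs, 34.0% to 36.0% beside 42.0% to 42.7% of all genes, and of the 6 only NHP2 and NIP7 still met the size under each of these scalings. UBTF met it under these scalings alone, with 0.24 in AGS and -0.25 in MKN1 after centring; this recount was added after seeing the data. FBL had changes of -0.46 in AGS and 0.23 in MKN1. The same direction was seen for IMP4, a U3 snoRNP-associated protein (-0.40 and 0.25), for NHP2 (-0.47 and 0.41), for POLR1A (-0.26 and 0.28) and for PPAT (-0.20 and 0.69). NIP7 had the reverse order, with 0.23 in AGS and -0.59 in MKN1. The median over the 50 genes was -0.21 in AGS and 0.0154 in MKN1, and the latter turned negative under other scalings. The difference between the lines was not tested for any of them, since each line has 1 library per group.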

How the results depend on the processing

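The number of members called for siRNA was 0 in every limma setting tried, and 22 to 31 were called higher in MKN1 where all 50 were tested. With a pseudocount of 0.1 FPKM, 1 member passed 1.5-fold downward in AGS. In MKN1, members below 0 numbered 36 with a common total, 38 with centring and 37 with quantile normalization, and the medians were -0.0586, -0.0792 and -0.0834. Centring left 2 members lower by 1.5-fold in MKN1, and quantile normalization 0 higher. Restricting the data to protein-coding genes that share no exon was chosen after seeing the data and kept 23 members: 19 lay below 0 in AGS and 11 in MKN1, 0 passed 1.5-fold in either direction in MKN1, and 10 were called higher in MKN1. Estimates near 0 changed sign: for siRNA NOP16 (-0.0077 with quantile normalization) and POLR1A (-0.0060 with centring, -0.0227 with quantile normalization), and for the line FBL (0.0986 with centring) and WDR12 (0.0514 with centring). Of 423 single-gene line estimates under alternatives 408 kept direction and side of the threshold, 5 lost the call, 8 gained it and 2 reversed; of 473 for siRNA 470 kept both and 3 reversed. The cause was not tested. The siRNA fit compares libraries within each line; without the line term 28 genes, against 980, were at an unadjusted p under 0.05 and 0 were called. Depth limits the weakest members, with 171 estimated fragments at the lowest.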
